A study of Rattus norvegicus with 5 samples.

Results

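The genes described here encode collagens, laminins and other parts of the extracellular matrix, together with some of the proteases and protease inhibitors that act on it and the filament protein vimentin. They were chosen by gene symbol, not by their signals: every gene probe (Affymetrix probe set) that carried a single symbol beginning with *Col* and a digit, with *Lama*, *Lamb* or *Lamc* and a digit, or with *Timp*, or that carried 1 of a short list of other matrix genes and *Vim*. Of 15866 gene probes on the array, leaving out 57 array controls, 78 gene probes for 56 genes met this rule. The thrombospondin gene *Thbs1* was on the list too, but no gene probe carried its symbol alone.

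Total RNA came from the small intestine of male Wistar rats that entered the diets at 6 weeks of age. There were 5 groups of 5 rats: a control group with no restriction and groups under 5, 10, 20 or 30% calorie restriction (CR) for 1 month, and all rats were dissected after a 16 h fast. The RNA of each group was pooled and hybridized to 1 Affymetrix rat array, so differences between single rats cannot be seen and no level has a replicate. The values are MAS5 signals, which are linear intensities in arbitrary units that the authors scaled to the same trimmed mean on every array.

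A gene probe was tested only where its log2 signal, averaged over the 5 arrays, was at least 5.54, which is a signal of 46.5 and the median of all gene probes. This left 7933 gene probes in all, and 44 gene probes for 35 of the 56 matrix genes. Their signals lay between 40.8 and 1467.8. The other 34 gene probes, for 29 genes, had signals between 0.1 and 62.2, and 21 of the 56 genes had no gene probe above the filter. Those 21 genes included the cartilage collagen genes *Col2a1*, *Col9a1* and *Col11a1*, elastin (*Eln*) and lysyl oxidase (*Lox*), the enzyme that crosslinks collagen and elastin. Across the 5 arrays, the 34 weak gene probes spanned a median log2 range of 1.42, against 0.60 in the 44 that passed. The weak ones are not interpreted further.

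The extracellular matrix of the gut is laid down mainly by fibroblasts and smooth muscle cells below the epithelium. Fibrillar collagens, chiefly types I and III, give the submucosa and muscle layers their tensile strength, while a thin basement membrane of type IV collagen, laminins and nidogen lies under the epithelium and around muscle cells and capillaries. Small proteoglycans and matricellular proteins decorate or modify these networks, matrix metalloproteinases cut them, and the tissue inhibitors of metalloproteinases (Timps) restrain that cutting.

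The genes for the main chains of type IV collagen lie head to head on rat chromosome 16, with *Col4a1* on the plus strand and *Col4a2* on the minus strand. The short stretch between their RefSeq starts is shown because both genes appear below as a pair whose signals can be set side by side. It is the plus strand of assembly GRCr8 at chr16:84885521-84885596, a length of 76 bases, and the capitals mark the only GC box (GGGCGG, searched on both strands), which lies on the minus strand.
Col4a1-Col4a2 shared upstream region: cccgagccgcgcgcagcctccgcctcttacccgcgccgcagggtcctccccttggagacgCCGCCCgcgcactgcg
The stretch has a GC content of 78.9%, against a median of 53.9% for windows of the same length before the starts of 33469 rat genes, of which 4.92% were at least as GC-rich. A GC box was present in 18.1% of those windows. No CCAAT (13.0% of windows) and no TATAAA (4.61% of windows) was found in either direction. These are descriptions of letters and say nothing of factor binding.

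Against the control array, the matrix genes did not move one way at every level. The median log2 signal ratio of the 44 gene probes was −0.06 at 5% CR, 0.18 at 10% CR, −0.26 at 20% CR and −0.18 at 30% CR, whereas the median over all 7933 gene probes lay between −0.03 and 0.01. Collagen chains (19 gene probes for 14 genes) had medians of −0.28, 0.14, −0.44 and −0.46 at 5, 10, 20 and 30% CR, and the other 25 gene probes had 0.08, 0.28, −0.14 and 0.05. The collagen signals were thus below the control array at 5, 20 and 30% CR in most cases (15, 17 and 16 of 19). They were above it at 10% CR in 14 of 19. Of all 7933 gene probes, 3890, 4314 and 3952 were below the control at 5, 20 and 30% CR, and 4053 were above it at 10% CR. All 4 ratios of a gene probe share the control array, and fewer cells of a type and less RNA per cell cannot be told apart in pooled tissue RNA.

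**Figure D1:**
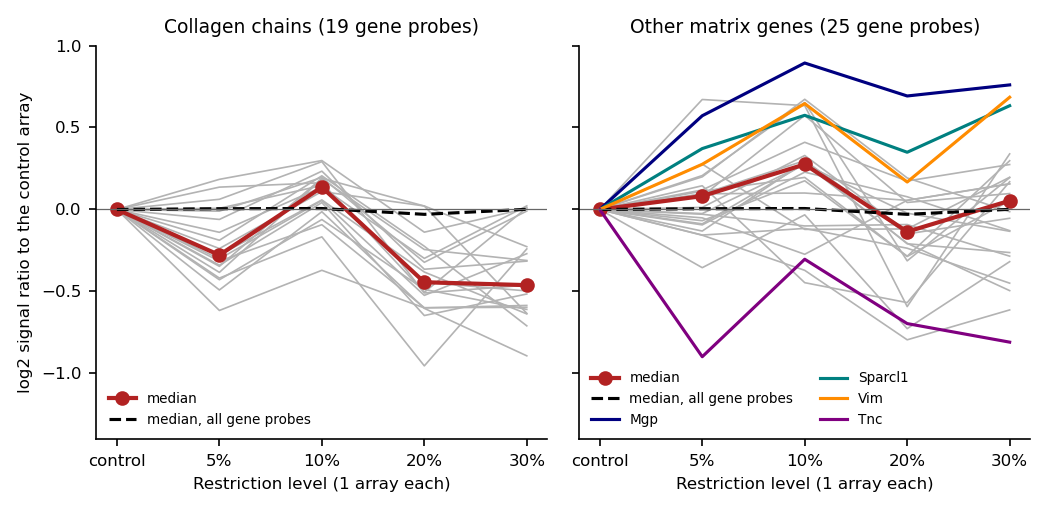
Log2 signal ratio to the control array (vertical axis) by restriction level (horizontal axis, 1 array each) for 19 gene probes of collagen chains (left) and 25 other matrix gene probes (right). Grey lines are single gene probes, the red line is their median and the dashed line is the median of all 7933 gene probes; the collagen median is highest at 10% CR (0.14) and is −0.44 at 20% CR and −0.46 at 30% CR, and *Mgp*, *Sparcl1*, *Vim* and *Tnc* are drawn in colour.

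By size, with a log2 ratio of at least 0.5, 2 matrix gene probes were higher at 5% CR (5.62% of all gene probes were) and 2 were lower (3.84% of all). At 10% CR 7 were higher (4.73% of all) and 0 lower (3.45% of all). At 20% CR 1 was higher (3.95% of all) and 13 lower (6.15% of all), and at 30% CR 3 were higher (7.51% of all) and 10 lower (5.61% of all). As shares of the 44 gene probes, the 13 and 10 are 29.5% and 22.7%. Collagen chains made up 8 of the 13 at 20% CR and 8 of the 10 at 30% CR. Each count rests on a single array, so none could be tested at its own level.

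At all 4 levels in the same direction, 1 gene probe was higher by at least 0.5, that of *Mgp* (0.769% of all gene probes were), and 0 were lower (0.34% of all). Without the 10% CR pool, *Col1a1* (gene probe 1370864_at) and *Tnc* made 2 that were lower at all remaining levels. The share of all gene probes without that pool is not given, so this count cannot be set against the whole array. In any size, 6 matrix gene probes were above the control on all 4 CR arrays (19% of all gene probes) and 10 were below it (20.6% of all), which are 13.6% and 22.7% of the 44.

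The 4 CR arrays were also compared as a group with the control array in limma. There the spread among the CR levels stands in for replicate error, and 3 residual degrees of freedom remain. Limma also draws the spread of each gene probe toward that of gene probes with similar signals. No gene probe on the array passed an adjusted p of 0.05 (0% of all, and 0 of 44 matrix gene probes). The smallest adjusted p was 0.0778 over all gene probes and 0.370 among the matrix genes (*Mgp*). At an unadjusted p under 0.05 stood 2 matrix gene probes that were higher under CR, those of *Mgp* and *Sparcl1* (2.71% of all), and 2 that were lower, those of *Tnc* and *Col1a1* 1370864_at (2.05% of all).

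**Figure D2:**
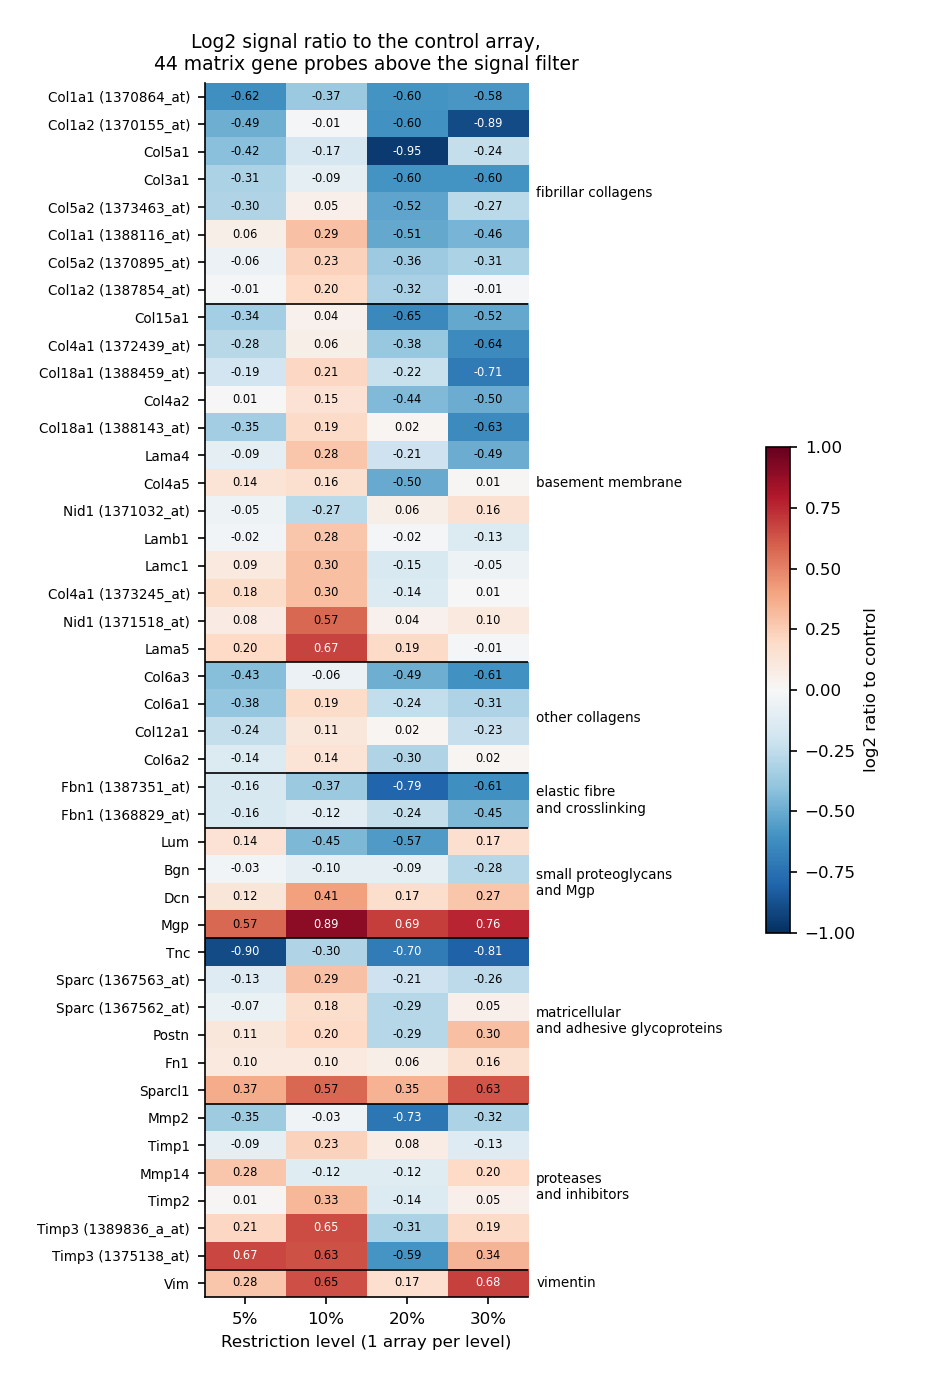
Each of the 44 matrix gene probes above the signal filter (vertical), grouped by role, with its log2 ratio to the control array at 5, 10, 20 and 30% CR (horizontal, 1 array per level). Blue cells are below and red cells above the control array; the fibrillar collagens are all below it at 20 and 30% CR, and *Mgp* is the only gene probe at or above 0.5 in every column.

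Among the fibrillar collagens, all 8 gene probes (5 genes) were below the control at 20% CR and at 30% CR (4314 and 3952 of all 7933 gene probes). Their medians were −0.56 and −0.39. *Col3a1*, the chain of type III collagen, had the highest signals of the group: 1467.8 on the control array, then 1180.1, 1376.4, 969.3 and 970.9 at 5, 10, 20 and 30% CR. The control and 10% CR arrays were the highest and the 20 and 30% CR arrays nearly equal and lowest. Its mean log2 ratio to the control was −0.40 ± 0.20 (standard error, limma; adjusted p = 0.988).

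Type I collagen is built of the *Col1a1* and *Col1a2* chains, each measured by 2 gene probes. For *Col1a1*, gene probe 1370864_at gave 142.5 on the control array, then 93.0, 110.2, 94.0 and 95.0 at 5, 10, 20 and 30% CR, so every CR array was below the control (mean log2 ratio −0.54 ± 0.20, adjusted p = 0.974 in limma). The other, 1388116_at, gave 215.6 on the control array, then 225.1, 263.9, 151.5 and 156.6 at the same levels, above the control at 5 and 10% CR and below it at 20 and 30% CR. Both thus placed the 20 and 30% CR arrays below the control, and they differed at 5% CR by 0.68 on the log2 scale.

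For *Col1a2*, gene probe 1370155_at gave 321.5 on the control array, then 228.8, 318.5, 211.7 and 173.2 at 5, 10, 20 and 30% CR. The other, 1387854_at, gave 226.0 on the control array, then 224.4, 258.8, 180.8 and 224.5. At 30% CR the first was the lowest of its 5 arrays, with a log2 ratio of −0.89, while the second matched the control (−0.01), so the level of *Col1a2* at 30% CR is not settled by this array. Without the 20% CR pool the mean ratio of 1387854_at was above 0.

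*Col5a1*, a chain of type V collagen, which nucleates type I fibrils, had 146.6 on the control array, then 109.7, 130.6, 75.7 and 124.1 at 5, 10, 20 and 30% CR. The 20% CR array was lowest, with a log2 ratio of −0.95, the most negative single ratio of the 44 gene probes, and the mean ratio was −0.44 ± 0.28 (adjusted p = 0.988 in limma) and −0.28 without the 20% CR pool. Both gene probes of its partner *Col5a2* were also lowest at 20% CR, with log2 ratios of −0.52 and −0.36. *Col5a2* is the neighbour of *Col3a1* on rat chromosome 9, and the 3 gene probes of that pair were each between −0.27 and −0.60 at 20 and 30% CR.

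In the basement membrane group, 12 of 13 gene probes (10 genes) had their highest signal at 10% CR (20.6% of all gene probes). *Col4a1* gene probe 1372439_at gave 203.2 on the control array, then 167.6, 211.6, 156.0 and 130.7 at 5, 10, 20 and 30% CR. Gene probe 1373245_at gave 206.7 on the control array, then 234.8, 254.2, 187.8 and 207.7. Their mean log2 ratios were −0.31 ± 0.24 and 0.09 ± 0.19, opposite in sign and neither past the adjusted threshold in limma. That of 1372439_at was −0.20 without the 30% CR pool, and that of 1373245_at ranged from 0.02 without the 10% CR pool to 0.16 without the 20% CR pool. In both, the 10% CR array was highest.

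*Col4a2*, which shares the short upstream region shown above and was added for that position after its values had been seen, had 158.3 on the control array, then 159.1, 175.2, 116.4 and 112.2 at 5, 10, 20 and 30% CR. The 20 and 30% CR arrays were the lowest, as they were for *Col4a1* 1372439_at, while 1373245_at was lowest at 20% CR alone. *Col4a5*, another type IV chain, had its lowest signal at 20% CR (log2 ratio −0.50) and was level with the control at 30% CR (0.01).

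The multiplexins of types XV and XVIII, collagens with glycosaminoglycan chains in basement membrane zones, followed. *Col15a1* had 131.5 on the control array, then 103.9, 135.4, 84.0 and 92.0 at 5, 10, 20 and 30% CR, with a mean log2 ratio of −0.36 ± 0.26 (adjusted p = 0.988 in limma). *Col18a1*, whose protein releases the fragment endostatin, had 273.9 on the control array, then 240.5, 315.8, 234.5 and 167.5 by gene probe 1388459_at. Both of its gene probes were highest at 10% CR and lowest at 30% CR, with log2 ratios to the control of −0.71 and −0.63 at 30% CR.

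Laminins and nidogen are the non-collagen parts of that membrane. *Lama5*, the alpha chain of many epithelial basement membranes, had 75.0 on the control array, then 86.1, 119.5, 85.7 and 74.3 at 5, 10, 20 and 30% CR, so the 10% CR array alone stood apart. *Nid1*, which links laminin to type IV collagen, gave 331.3 on the control array, then 350.6, 493.0, 341.3 and 354.4 by 1371518_at, again highest at 10% CR. Its dimmer gene probe 1371032_at gave 63.2 on the control array, then 61.0, 52.3, 65.7 and 70.4, with the 10% CR array lowest. *Lamb1*, *Lamc1* and *Lama4*, each with a single gene probe above the filter, were highest at 10% CR (log2 ratios 0.28, 0.30 and 0.28). Of these, *Lama4* was the only one with a ratio near −0.5 at 30% CR (−0.49).

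Of the remaining collagens, *Col6a3*, a chain of the beaded microfibrils of type VI collagen, had 309.8 on the control array, then 230.2, 296.9, 221.0 and 203.1 at 5, 10, 20 and 30% CR. The control and 10% CR arrays were nearly level and the other 3 arrays were lower, with a mean log2 ratio of −0.40 ± 0.21 (adjusted p = 0.988 in limma). *Col6a1* and *Col6a2*, neighbours on rat chromosome 20, were both highest at 10% CR but lowest at different levels, 5% CR for *Col6a1* (log2 ratio −0.38) and 20% CR for *Col6a2* (−0.30). *Col12a1*, a collagen on the surface of type I fibrils, was lowest at 5 and 30% CR (−0.24 and −0.23).

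Fibrillin-1 (*Fbn1*), which forms the microfibrils of elastic fibres, was highest on the control array by both of its gene probes. By 1387351_at it had 130.1 on the control array, then 116.7, 100.6, 75.0 and 85.1 at 5, 10, 20 and 30% CR, and unlike most collagen chains it was below the control at 10% CR as well. The second gene probe had log2 ratios of −0.16, −0.12, −0.24 and −0.45. Mean ratios were −0.48 ± 0.25 and −0.24 ± 0.20 (adjusted p = 0.988 for both in limma).

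*Mgp* encodes matrix Gla protein, a vitamin K-dependent inhibitor of calcification that is made by smooth muscle and cartilage cells. It had 342.2 on the control array, then 508.6, 635.6, 552.9 and 579.4 at 5, 10, 20 and 30% CR. Each CR array was thus above the control, and the lowest CR signal was at the mildest restriction. The log2 ratios were 0.57, 0.89, 0.69 and 0.76, their mean 0.73 ± 0.15, a 1.66-fold difference, and the adjusted p was 0.370 in limma.

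The small leucine-rich proteoglycans had smaller ratios, not all of the same sign. Decorin (*Dcn*), which binds type I collagen fibrils, had 974.5 on the control array, then 1058.5, 1294.7, 1099.2 and 1178.4 at 5, 10, 20 and 30% CR. All CR arrays were above the control, by a mean log2 ratio of 0.24 ± 0.15 (adjusted p = 0.988 in limma). Lumican (*Lum*), the neighbour of *Dcn* on rat chromosome 7, was below the control at 10 and 20% CR (log2 ratios −0.45 and −0.57) and above it at 5 and 30% CR (0.14 and 0.17). Biglycan (*Bgn*) stayed between −0.28 and −0.03.

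Tenascin-C (*Tnc*), a glycoprotein of remodelling tissue, had the lowest mean ratio of the 44 gene probes. Its signal was 208.3 on the control array, then 111.8, 168.8, 128.6 and 118.9 at 5, 10, 20 and 30% CR. All 4 CR arrays were below the control, the 10% CR array least so, and the mean log2 ratio was −0.68 ± 0.23 (adjusted p = 0.974 in limma).

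*Sparcl1*, a relative of *Sparc* that takes part in collagen fibril assembly, had 686.1 on the control array, then 887.6, 1021.6, 873.9 and 1063.8 at 5, 10, 20 and 30% CR. Every CR array was above the control, with a mean log2 ratio of 0.48 ± 0.15 (adjusted p = 0.955 in limma). *Sparc* itself, a collagen-binding matricellular protein, gave 448.8 on the control array, then 428.0, 506.7, 368.0 and 465.7 by 1367562_at. By 1367563_at it gave 370.8 on the control array, then 338.5, 453.5, 320.8 and 309.1. Both gene probes were highest at 10% CR and below the control at 5 and 20% CR, and they disagreed at 30% CR.

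Fibronectin (*Fn1*), the adhesive glycoprotein that integrins bind, was the steadiest of the 44, with 165.1 on the control array, then 176.4, 177.0, 171.6 and 184.1 at 5, 10, 20 and 30% CR. Its mean log2 ratio of 0.10 ± 0.16 was smaller than its standard error in limma, which draws on other gene probes. The standard deviation of its own 4 ratios was 0.04. Periostin (*Postn*) was below the control at 20% CR alone (log2 ratio −0.29) and had 0.30 at 30% CR.

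Among proteases, *Mmp2*, a gelatinase, was highest on the control array and lowest at 20% CR (log2 ratio −0.73). *Mmp14*, the membrane-bound protease that activates it, had its highest signal at 5% CR (0.28). The inhibitor *Timp1* had 115.8 on the control array, then 108.5, 135.6, 122.2 and 105.9 at 5, 10, 20 and 30% CR. *Timp2* had 266.8 on the control array, then 269.2, 335.2, 242.9 and 276.3. For both, the 10% CR array was highest and the mean log2 ratios, 0.02 and 0.06, were within a standard error of 0.

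*Timp3*, the inhibitor that is bound to the matrix, varied most across the arrays. By 1389836_a_at it had 147.1 on the control array, then 169.8, 231.2, 118.4 and 168.3 at 5, 10, 20 and 30% CR. By 1375138_at it had 61.5 on the control array, then 97.9, 95.4, 40.8 and 77.8. Both were above the control at 5, 10 and 30% CR and below it at 20% CR, and the log2 range of 1.26 in the dimmer one was the widest of the 44 gene probes.

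Vimentin (*Vim*), the intermediate filament protein of mesenchymal cells, is not itself a matrix protein. It had 639.9 on the control array, then 774.7, 1001.2, 718.7 and 1028.4 at 5, 10, 20 and 30% CR. Each CR array was above the control, the 10 and 30% CR arrays by most, with a mean log2 ratio of 0.44 ± 0.20 (adjusted p = 0.988 in limma).

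The signals were then set against the restriction percent itself, as a slope of the log2 signal per 10% restriction over the 5 arrays. The slope was below 0 in 36 of 44 matrix gene probes (52.3% of all gene probes) and in 19 of 19 collagen chains. With quantile normalization or median centring of the arrays it was below 0 in the same number of collagen chains. Without the 20% CR pool it was below 0 in 29 of the 44, with 11 of the 25 other matrix gene probes in place of 17. Among collagen chains it was below 0 in 18 of the 19 without the 20% CR pool and in 17 without the 30% CR pool. No slope passed an adjusted p of 0.05 in limma (0% of all, and 0 of 44), and the smallest adjusted p was 0.998.

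At an unadjusted p under 0.05, limma gave 8 matrix gene probes with a slope below 0 (1.54% of all) and 1 with a slope above 0, that of *Sparcl1* (1.55% of all). Of the 8, 7 were collagen chains: *Col3a1*, *Col1a2* 1370155_at, *Col18a1* 1388459_at, *Col4a2*, *Col4a1* 1372439_at, *Col1a1* 1388116_at and *Col6a3*. The eighth was *Fbn1* 1387351_at. *Col1a2* 1370155_at had the steepest slope, −0.27 ± 0.08, and *Col3a1* had −0.20 ± 0.06. The count was 3 without the control pool, 5 without the 30% CR pool and 11 without the 5% CR pool.

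Because so many signals peaked at 10% CR, the 30% CR array was also compared with the 10% CR array, a comparison chosen after the values had been seen. At 30% CR 37 of 44 matrix gene probes were below the 10% CR array (51.6% of all gene probes), with 14 at a log2 ratio of −0.5 or less (4.97% of all) and 1 at 0.5 or more, that of *Lum* (5.45% of all). At 20% CR 41 of 44 were below the 10% CR array (55.3% of all). All 19 collagen chains were below it at both levels, with a median of −0.50 at 30% CR. After quantile normalization 18 of the 19 were below it at 20% CR. Both counts share the 10% CR array, so they are not separate observations. The 26 of 44 gene probes that were highest at 10% CR (20.6% of all gene probes) had to be below it at both levels.

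The position of each array can be read without the control as baseline, from the median over the 44 gene probes of the log2 signal minus that gene probe's mean over the 5 arrays. It was 0.06 on the control array, then −0.02, 0.25, −0.18 and −0.12 at 5, 10, 20 and 30% CR, while the same median over all gene probes stayed between −0.03 and 0.01. The 10% CR array was the highest of the 5 in 26 of 44 matrix gene probes (20.6% of all gene probes). The 20% CR array was the lowest in 19 (28.8% of all) and the 30% CR array in 13 (21.1% of all). None of the 44 had its highest signal at 20% CR, where 21.2% of all gene probes did.

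**Figure D3:**
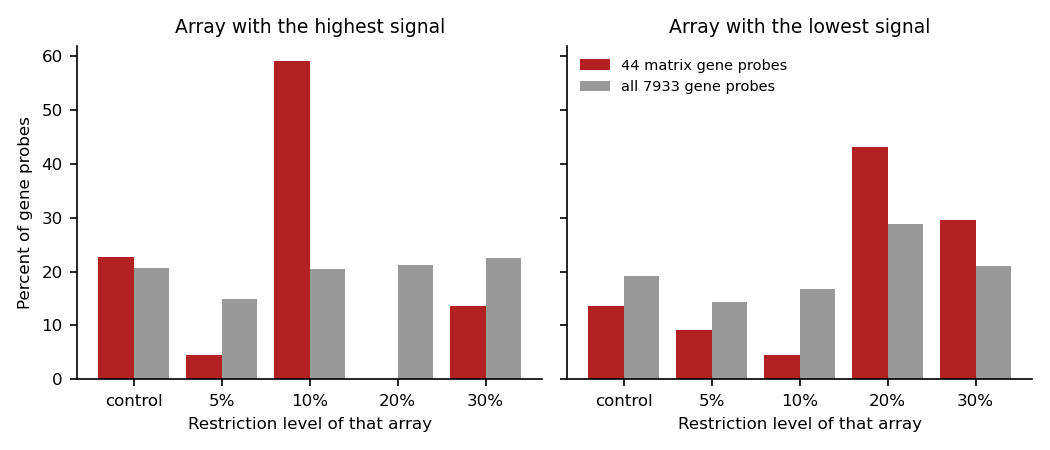
Percent of gene probes (vertical axis, from 0) whose highest signal (left) or lowest signal (right) was on the array of each restriction level (horizontal axis), for the 44 matrix gene probes in red and all 7933 gene probes in grey. The 10% CR array holds the highest signal of 59.1% of matrix gene probes against 20.6% of all.

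The 9 genes with 2 gene probes above the filter give a view of how far 2 readings of the same RNA differ on these arrays. Their mean log2 ratios differed by a median of 0.23, from 0.04 in *Col18a1* to 0.46 in *Col1a2*, and had opposite signs in *Col4a1* and *Nid1*. At a single level the difference reached 0.88 in *Col1a2* and 0.85 in *Nid1*.

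**Figure D4:**
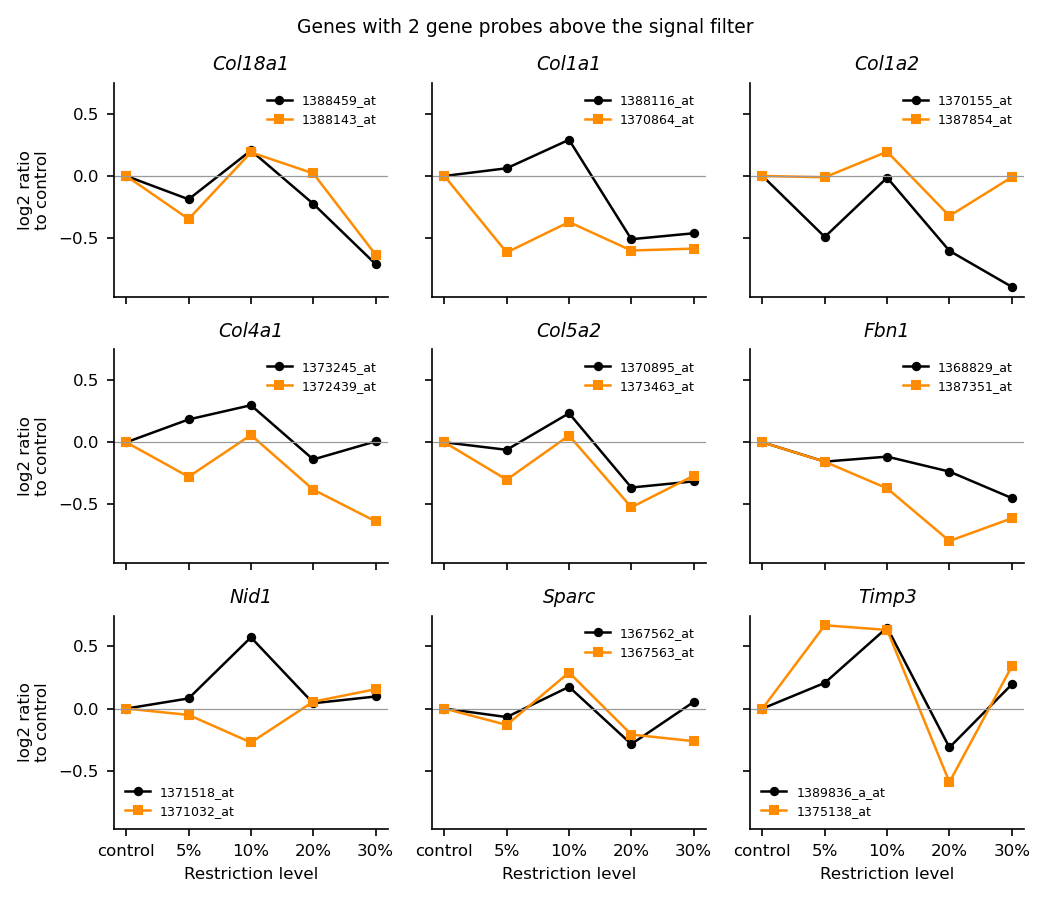
Log2 signal ratio to the control array (vertical axis) by restriction level (horizontal axis) for the 9 genes with 2 gene probes above the filter, 1 panel per gene and 1 line per gene probe. In *Col18a1* and *Col5a2* the lines run close, in *Col1a2* they are 0.88 apart at 30% CR, and in *Nid1* they part at 10% CR.

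Markers of the cell types in the gut wall differed between the same arrays. Smooth muscle markers (9 gene probes, 9 genes) were highest at 10% CR in 8 of 9 (20.6% of all gene probes). Their median deviation was 0.12 on the control array, then −0.15, 0.30, −0.09 and −0.22 at 5, 10, 20 and 30% CR. Macrophage markers (6 of 6 highest at 10% CR) had −0.16 on the control array, then −0.01, 0.27, −0.06 and −0.05. Fibroblast markers (7 gene probes, 5 genes) had 0.13 on the control array, then −0.03, 0.09, −0.24 and −0.06, lowest at 20% CR in 5 of 7 (28.8% of all gene probes). The array with the highest matrix signals was also that with the highest muscle and macrophage markers.

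Epithelial markers (9 gene probes, 9 genes, the defining ones of this tissue) were all highest at 20% CR (21.2% of all gene probes). They had a median deviation of −0.16 on the control array, then −0.01, −0.13, 0.45 and 0.04 at 5, 10, 20 and 30% CR. Their summed signal was 16539 on the control array, then 19099, 18578, 25005 and 19408 at those levels. *Pdgfra*, a receptor of gut fibroblasts, had 447.7 on the control array, then 394.4, 455.2, 243.3 and 322.7. Its log2 ratio at 20% CR, −0.88, was the lowest of the fibroblast markers. *Gsn* was at −0.11 there, and *Dpt* 1373947_at and *Thy1* 1369651_at were not below the control (0.00 and 0.19). The 20% CR array was thus low in most matrix and fibroblast gene probes and high in epithelial ones. Its 3′ over 5′ ratio for beta-actin, which grows as RNA breaks down, was 3.18, against 2.20 to 2.41 on the other 4 arrays. The same ratio for *Gapdh* did not set that array apart, with 1.40 on the control array, then 1.32, 1.37, 1.27 and 1.21 at 5, 10, 20 and 30% CR. The part of cell composition and of RNA integrity in the matrix signals was not tested.

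**Figure D5:**
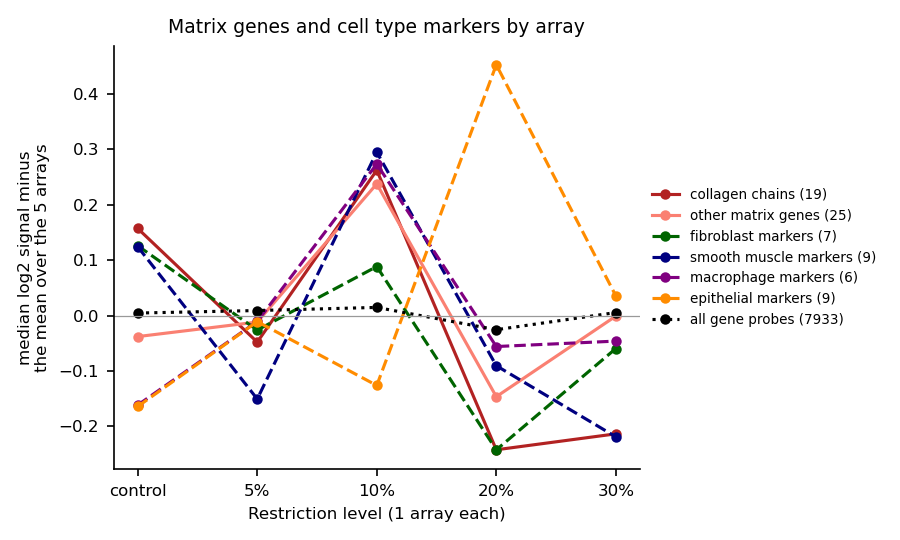
Median over the gene probes of each list of the log2 signal minus the gene probe's mean over the 5 arrays (vertical axis), by restriction level (horizontal axis, 1 array each). Collagen chains, other matrix genes, smooth muscle and macrophage markers are all highest at 10% CR, and epithelial markers stand at 0.45 at 20% CR.

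Fewer markers of other cell types passed the filter. Summed signals of exocrine pancreas genes were 703.9 on the control array, then 341.7, 299.8, 269.7 and 257.3 at 5, 10, 20 and 30% CR. The control array, where this sum was highest, was also the highest in 10 of 44 matrix gene probes (20.7% of all gene probes). These included *Tnc*, *Fbn1* and *Col1a1* 1370864_at, while *Col1a1* 1388116_at was highest at 10% CR. Of the 7 pancreas genes 6 were below the filter, which averages over the 5 arrays, and all 6 were highest on the control array. There *Prss1*, *Cpb1*, *Ctrb1* and *Pnlip* had 174.3, 93.7, 74.0 and 67.5, each above the filter signal of 46.5. At 10% CR they had 2.4, 22.0, 0.7 and 23.0. *Cela1*, which passed, was highest at 10% CR instead (245.8, against 214.5 on the control array). The part of pancreas genes in the matrix ratios was not tested. Of the endothelial genes 2 of 6 on the array passed the filter, of neuron and glia genes 1 of 6 and of adipocyte genes 1 of 4. Summed signals ranged from 267.0 to 319.8, from 197.3 to 265.3 and from 137.5 to 179.1 in these lists, each highest at 10% CR. Single genes did not all follow these sums, which include gene probes below the filter. The neuron gene that passed, *Snap25*, was highest at 5% CR (82.6, against 79.9 at 10% CR). Of the endothelial genes that passed, *Kdr* was highest at 10% CR (103.3) and *Eng* on the control array (62.8). The adipocyte gene that passed, *Cfd*, had 82.5 on the control array, then 105.9, 140.3, 117.5 and 114.2 at 5, 10, 20 and 30% CR. Of those below the filter, leptin (*Lep*), a defining adipocyte gene, lay between 1.0 and 2.4. *Lpl* and *Plin1* were highest on the control array, at 47.7 and 11.3, and lowest at 20% CR, at 16.3 and 1.8.

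The genes that fold, process, bind or cut the matrix gave 0 gene probes past the adjusted threshold in either limma fit, in all 4 lists. At an unadjusted p under 0.05 stood 1 slope below 0 in each of the folding and receptor lists, *Serpinh1* and *Itga1* (1.54% of all gene probes). In the comparison with the control 1 protease was lower at that p, *Adam17* (2.05% of all). *Mmp12* is not counted, since it passed the signal filter only through CR arrays on which it was high. Of 23 genes for collagen folding and processing, 14 were on the array and 9 passed the filter. Mean ratios were above 0 in 5 and below 0 in 4 (3894 and 4039 of all 7933 gene probes). The prolyl hydroxylases *P4ha2* and *P4ha1* and the lysyl hydroxylase *Plod1* had the highest, 0.35, 0.32 and 0.35. *Plod2*, *Serpinh1* and *P4hb* had the lowest, −0.30, −0.21 and −0.19. *Serpinh1*, the collagen-specific chaperone, was at −0.54 at 30% CR (log2 ratio to the control) and at −0.13 at 20% CR.

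In TGF-beta signalling, a main inducer of collagen genes, 13 of 19 genes passed the filter (14 gene probes). Mean ratios were above 0 in 9 and below 0 in 5 (3894 and 4039 of all 7933 gene probes). *Tgfb1* had 48.0 on the control array, then 71.1, 92.9, 67.0 and 59.4 at 5, 10, 20 and 30% CR, with the 10% CR array highest. *Ltbp1*, which holds the latent form of the growth factor in the matrix, and *Smad3* had mean log2 ratios of 0.45 and 0.26, and *Eng*, *Skil* and *Smad2* had −0.30, −0.16 and −0.14. None of these passed the test.

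Of the matrix receptors, 12 of 21 genes passed the filter (17 gene probes). Mean ratios were below 0 in 12 and above 0 in 5 (4039 and 3894 of all 7933 gene probes). *Itga1*, the integrin chain that pairs with *Itgb1* to bind collagen, had 107.5 on the control array, then 85.9, 112.2, 78.5 and 69.2 at 5, 10, 20 and 30% CR, the same order of arrays as *Col4a1* 1372439_at. *Dag1* and *Itgb4*, receptors of basement membranes, had mean log2 ratios of −0.29 (gene probe 1371430_at) and −0.27. Those of *Sdc2* 1370166_at, *Itgb5* and a weaker gene probe of *Sdc1* were 0.30, 0.25 and 0.08. The other *Sdc2* gene probe, 1370167_at, had −0.002.

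Of 25 other matrix proteases and their partners, 22 were on the array and 9 passed the filter (10 gene probes). Mean ratios were above 0 in 5 and below 0 in 5 (3894 and 4039 of all 7933 gene probes). *Mmp12*, macrophage elastase, had 30.7 on the control array, then 42.0, 85.5, 58.7 and 65.2 at 5, 10, 20 and 30% CR, with the control and 5% CR signals under 46.5, so its place among the 5 above 0 is no evidence of a difference. *Mmp10* and *Plau* had mean log2 ratios of 0.39 and 0.15. *Adam17*, a sheddase, was below the control at every level (mean −0.50), and *Reck* and *Plat* had −0.21 and −0.16.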

How the data were processed

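The deposited values are signal intensities on a linear scale, which the authors computed with MAS5 in the GeneChip software and scaled so that the mean without the lowest and highest 2% of signals was the same (132) on each array. Array medians lay between 44.9 and 49, and correlations between arrays between 0.931 and 0.952. The subtraction of mismatch signals in MAS5 makes ratios of dim gene probes unstable, and differences in total RNA are removed by the scaling. The authors' detection and change calls were not used here, and no column was left without a sample (0).

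Signals were floored at 0.1 and taken to log2. Symbols came from the array annotation: 12783 gene probes had 1 symbol, 312 several and 2771 none. All 56 matrix symbols were in the current rat gene table, and 41 of the genes had a RefSeq upstream sequence (GRCr8). Neighbouring genes were taken from the same table.

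Fits used limma 3.58.1 in R 4.3.3 (lmFit, eBayes with trend, two-sided, Benjamini-Hochberg over 7933 gene probes, threshold 0.05). The single control array was assumed to vary like the CR arrays. The fitting code was run on simulated data with planted changes and independent noise. That run says nothing of differences between unreplicated pools.

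The gene probes and lists were chosen with earlier results of these data known. Signals on every array are given for gene probes at or above 0.5 at all levels, the 8 highest and 8 lowest mean ratios, the 4 largest slopes each way, and *Col1a1*, *Col1a2*, *Col3a1*, *Col4a1*, *Fn1*, *Sparc*, *Mgp*, *Vim* and the Timp genes. Of other lists, up to 3 genes each way by mean ratio were named. The lists were collagen folding and processing, TGF-beta signalling, matrix receptors and matrix proteases, and markers of epithelium, fibroblasts, smooth muscle, endothelium, neurons and glia, macrophages, exocrine pancreas and adipocytes. Summed marker signals include gene probes below the filter.

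As alternatives, the arrays were quantile normalized or centred on their medians, a constant of 13 was added to the signals, the filter was dropped or set at quantile 0.75, the brightest gene probe stood for its gene, sizes of 0.3 and 1 were counted, the prior was fitted without the intensity trend or robustly, ranks replaced the percents, and each pool was left out. The comparison of 30% with 10% CR, its alternatives, and the extreme arrays with the added constant or without the filter were chosen after seeing the data.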

Additional observations from a re-analysis of the deposited data

How the results depend on the processing

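Without the signal filter, all 78 gene probes enter, and 5 were higher and 2 lower at all 4 levels by at least 0.5, with 13 higher and 10 lower at 5% CR, 20 and 5 at 10% CR, 12 higher at 20% CR, 17 and 18 at 30% CR, 29 lower and 11 higher at 30% against 10% CR, and 20 lowest at 30% CR. With a stricter filter, which keeps fewer gene probes, 1 was higher and 0 lower at 5% CR, 6 lower at 20% CR, 6 lower at 30% CR, 9 lower at 30% against 10% CR, 8 lowest at 30% CR, 0 lower in the comparison with the control at an unadjusted p under 0.05 in limma and 0 rising. With 1 gene probe per gene, 1 was higher and 1 lower at 5% CR, 6 lower at 30% CR and 1 lower at that p. A size of 0.3 gave 2 higher and 2 lower at all levels, 11 lower at 5% CR, 4 lower at 10% CR, 2 higher at 20% CR, 17 lower at 30% CR, and 23 lower and 3 higher at 30% against 10% CR. A size of 1 left 0 in each of these counts. Counts of rising slopes at an unadjusted p under 0.05 were 0 after quantile normalization, 2 after median centring, 0 without the intensity trend and 2 with the rank of the level. The share over all gene probes under the same setting is not given for these counts or for those without single pools. They show only how the matrix counts move with the processing, not how they stand against the whole array.

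Leaving out each pool in turn gave 0 to 2 gene probes lower at all levels (2 without the 10% CR pool). In limma at an unadjusted p under 0.05 it gave 2 to 6 lower against the control (6 without the 10% CR pool), 2 to 4 higher (4 without the 20% CR pool), 0 to 3 rising slopes (3 without the 10% CR pool, 2 without the 5% or the 20% CR pool, 0 without the control) and 3 to 11 falling slopes. The sign turned in 5 mean log2 ratios close to 0. Without the 10% CR pool it did so in *Nid1* 1371032_at (range −0.089 to 0.054), *Timp1* (−0.048 to 0.070) and *Timp2* (−0.024 to 0.13), and without the 20% CR pool in *Sparc* 1367562_at (−0.10 to 0.053) and *Col1a2* 1387854_at (−0.11 to 0.059). The cause was not tested. The median deviation of the matrix genes stayed between 0.211 and 0.258 on the 10% CR array, between −0.216 and −0.116 at 20% CR and between −0.139 and −0.0514 at 30% CR under all settings (−0.116 and −0.0514 without the 10% CR pool), and counts of adjusted p under 0.05 were 0 under all. Of 382 alternatives over 35 values of named gene probes, 377 kept direction and side of the threshold, and for *Mgp* the adjusted p in limma lay between 0.226 and 0.697. No paired analysis was possible because each group holds 1 array, which leaves no pairs to form a block. Without replicate arrays, a difference at a single level cannot be told apart from the error of that array, and gene probes with weak signals vary most.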
